A study of Mus musculus with 9 samples.

Results

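The genes examined were Nampt, Nmrk1, Naprt, Nmnat1, Nmnat2, Nmnat3 and Sarm1, the enzymes that make NAD from its precursors in mammalian cells and the NAD-cleaving enzyme that drives axon degeneration. They were chosen by name, with earlier results of these data known, and all 7 were found among the 23997 gene symbols measured. Of these, 6 were listed under their own symbols and Naprt was listed under the older symbol Naprt1. Expression was measured by RNA-Seq in retinal ganglion cells (RGCs), the neurons whose axons form the optic nerve. Wild type C57BL/6J mice of both sexes received an anterior chamber injection at 6 weeks of age, and their retinas were collected 2 weeks later, at 8 weeks. Control eyes received saline and had an average change in intraocular pressure (IOP) within 1 mmHg, measured against the uninjected eye of the same animal. Eyes injected with microbeads, which obstruct aqueous outflow, were assigned by their average IOP rise to Mild IOP (more than 1 and less than 4 mmHg) or Moderate IOP (4 mmHg or more). RGCs were enriched from dissociated retinas by immunopanning, with 3 negative steps and a positive step on Thy1.2. RNA from 12 retinas (Control), 12 retinas (Mild IOP) or 6 retinas (Moderate IOP) was pooled, and each pool was divided into 3 technical replicates. The errors and tests given here therefore cover the spread between libraries of 1 pool and not that between animals. The optic nerve was not part of the preparation, so no value concerns RNA held in axons outside the retina.

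NAD carries electrons in metabolism and is consumed as a substrate by sirtuins, PARPs and Sarm1. Nampt converts nicotinamide into nicotinamide mononucleotide (NMN), Nmrk1 makes NMN from nicotinamide riboside, and Naprt starts the parallel route from nicotinic acid. The Nmnat enzymes then join NMN, or its acid counterpart, to an adenylyl group. Nmnat1 acts in the nucleus, Nmnat3 in mitochondria, and Nmnat2 is a short-lived protein that neurons transport into their axons. When Nmnat2 is lost from an axon, NMN builds up relative to NAD and activates Sarm1, which breaks down the remaining NAD and commits the axon to degenerate.

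Expression is given as scaled FPKM (fragments relative to transcript length and library size, after scaling between libraries), a unit that is per length and so allows levels of different genes to be set side by side. The depth derived from the deposited confidence intervals was about 4620000 to 8280000 fragments per library. Summed RGC markers (Rbpms, Slc17a6, Thy1, Pou4f1, Pou4f2, Sncg, Nefl and Nefm) amounted to 1458 to 1549 scaled FPKM in Control, 1072 to 1324 in Mild IOP and 2311 to 2465 in Moderate IOP, so the labelled cell type was present in every library. Markers of 5 amacrine genes amounted to 773 to 817, 846 to 905 and 544 to 597 in the same order of groups, and those of 5 rod genes to 418 to 511, 279 to 322 and 274 to 315. Markers of Müller glia and astrocytes (5 genes) amounted to 38.0 to 42.1, 34.2 to 44.2 and 50.4 to 86.3. Bipolar markers (5 genes) amounted to 24.5 to 25.1, 24.8 to 30.4 and 27.0 to 32.4, and microglial markers (5 genes) to 14.1 to 24.6, 16.1 to 29.7 and 26.6 to 34.0. Endothelial markers (4 genes, with Cldn5 and Cdh5 at 0 throughout) lay between 0.275 and 1.92 in the 9 libraries. Summed lens crystallins (5 genes) amounted to 308 to 374 in Control, against at most 2.41 in Mild IOP and 5.09 in Moderate IOP. In Moderate IOP against Control, the ranges of all these sums except the endothelial did not overlap. In Mild IOP against Control, those of the RGC, amacrine, rod and crystallin sums did not overlap, with only the amacrine sum higher. The single RGC and amacrine markers were mixed in that comparison. Of 8 RGC markers 2 lay below (Sncg and Pou4f2), 1 above (Nefl) and 5 overlapped. Of 5 amacrine markers 1 lay above (Slc6a9) and 4 overlapped. All Moderate IOP libraries lay above all Control libraries for 0 of 5 bipolar and 1 of 5 microglial markers. This also held for 2 of 5 Müller glia and astrocyte markers (Rlbp1 and Glul), while 3 overlapped. Grm6, Trpm1, Csf1r, Cx3cr1 and Aqp4 had lower means in Moderate IOP than in Control, and the other markers of these lists higher means. The part of these sums and markers in any difference below was not tested. In bulk libraries, fewer cells of a type and less RNA per cell cannot be told apart.

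Across the 9 libraries, Nmrk1 and Nmnat2 had the highest means of the 7 transcripts, and Naprt and Nmnat3 the lowest. The mean level was 16.0 ± 4.85 scaled FPKM (SD, n = 9 here and in the next sentences) for Nmrk1 and 15.2 ± 2.23 for Nmnat2, at the 63.7th and 62.7th percentile of all genes compared. Nmrk1 was the higher of the pair in 4 of 9 libraries, so their order was not separable. Nmnat1 (9.59 ± 2.80), Nampt (9.31 ± 1.72) and Sarm1 (7.89 ± 1.80) followed, near the median of all genes. Nmnat2 exceeded Nmnat1 in 8 of 9 libraries, Nmnat1 exceeded Nampt in 6 of 9 and Nampt exceeded Sarm1 in 8 of 9, so the Nmnat1 and Nampt levels overlapped within their spread. A 5.14-fold gap separated Sarm1 from Naprt (1.54 ± 1.12), and Sarm1 was higher in all 9 libraries. Nmnat3 (1.15 ± 1.14) was above 0 in 7 of 9 libraries and was not separable from Naprt, which exceeded it in 5 of 9. The order was not the same in every group. In Mild IOP, Nmnat3 was above Naprt in all 3 libraries and the mean of Nampt was above that of Nmnat1, as the values below show. Each of the 7 genes passed the minimum mean level of 0.5 for testing.

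**Figure D1:**
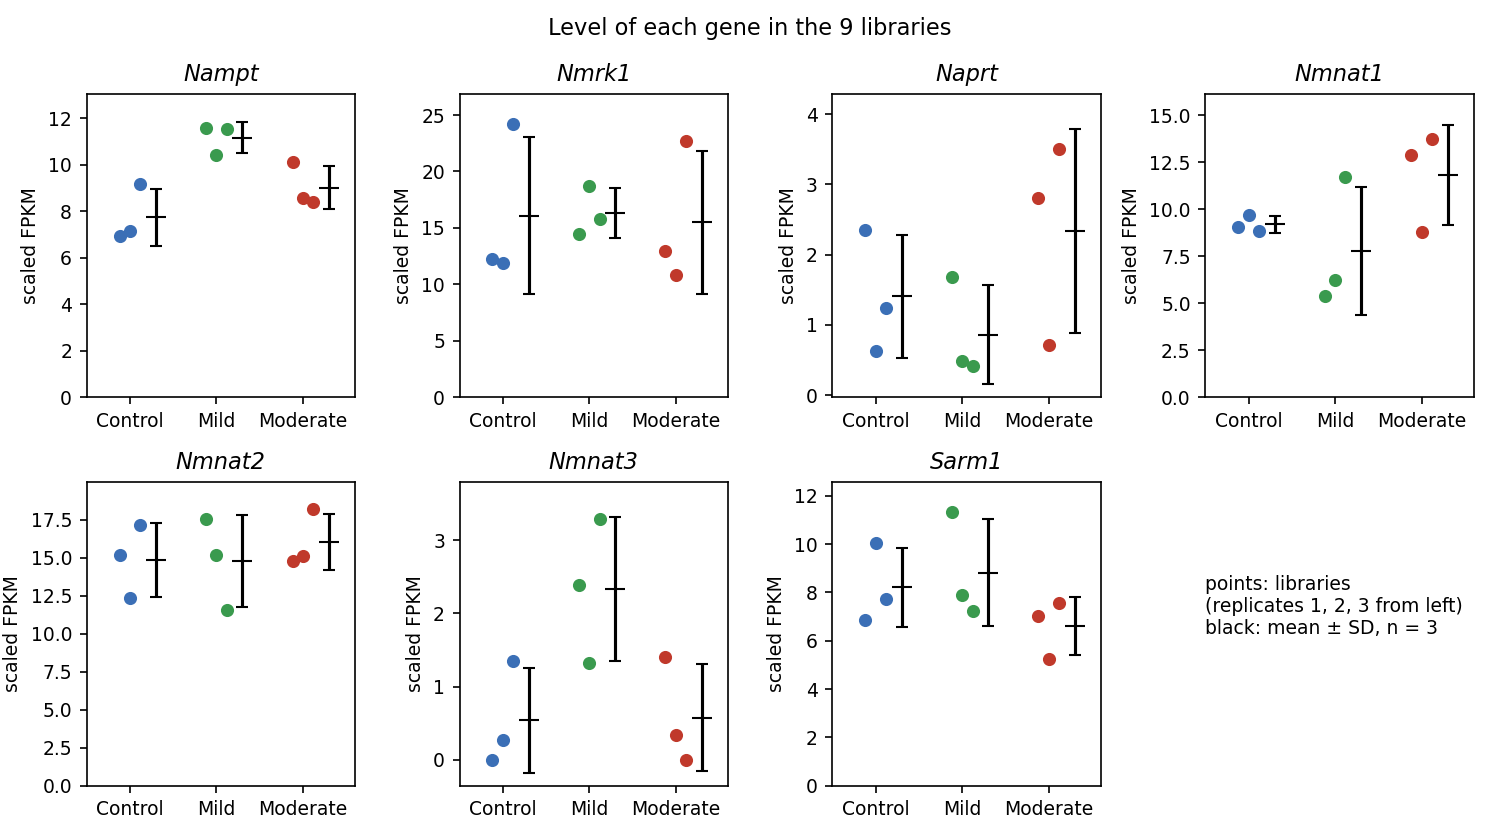
Scaled FPKM (y axis, linear, a separate scale for each panel) of the 7 genes in Control, Mild IOP and Moderate IOP libraries (x axis); points are libraries, and bars are the group mean with its SD (n = 3). The 3 Mild IOP libraries lie above the 3 Control libraries for Nampt alone, while the groups overlap for Nmrk1, Naprt, Nmnat1, Nmnat2 and Sarm1, and nearly separate for Nmnat3.

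Nampt, the enzyme that sets the pace of NAD salvage from nicotinamide, was higher in every Mild IOP library than in any Control library. Its locus spans 32820335 to 32853369 on the plus strand of chromosome 12 (mm10, as for all loci given here). Nampt measured 6.93, 7.13 and 9.15 scaled FPKM in the Control libraries (7.74 ± 1.23, SD, n = 3), 11.6, 10.4 and 11.5 in the Mild IOP libraries (11.2 ± 0.666) and 10.1, 8.57 and 8.38 in the Moderate IOP libraries (9.02 ± 0.943). The Mild IOP libraries stood above both other groups, and the Moderate IOP libraries overlapped with Control. On the log2(scaled FPKM + 1) scale, on which every difference below is given and which understates changes of low genes, the Mild IOP minus Control difference was 0.48 (SE 0.182, 95% interval 0.08 to 0.88), or 1.40-fold. This did not pass the threshold used here, an FDR below 0.1 (limma with Benjamini-Hochberg adjustment over 13070 genes, adjusted p = 0.374). The study set the same level, but for Cuffdiff, a different test. Moderate IOP differed from Control by 0.20 (adjusted p = 0.642) and from Mild IOP by -0.28 (adjusted p = 0.405) in the same limma fit. Each Nampt value rested on 208 to 385 derived fragments. The locus of Gdap10 (chromosome 12, 32824116 to 32826908) lies within that of Nampt on the same strand, and it was assigned 0.00930 to 1.87 scaled FPKM, so the division of reads between the pair is uncertain.

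Nmrk1, the kinase for the nicotinamide riboside route, did not differ detectably between groups. Its locus is at 18632016 to 18652184 on the plus strand of chromosome 19. The Control libraries measured 12.3, 11.9 and 24.2 scaled FPKM, the Mild IOP libraries 14.5, 18.7 and 15.8 and the Moderate IOP libraries 13.0, 10.8 and 22.7. In both Control and Moderate IOP, 1 of 3 libraries was above 20 and the other two were below 14, and all groups overlapped. The group means were 16.1 ± 6.99 (Control), 16.3 ± 2.19 (Mild IOP) and 15.5 ± 6.31 (Moderate IOP; SD, n = 3 each). The fold against Control was 1.06 (95% interval 0.668 to 1.69) for Mild IOP and 0.970 (0.610 to 1.54) for Moderate IOP, so that a 1.5-fold increase lay inside both intervals. Naprt, at 75890964 to 75894481 on the minus strand of chromosome 15, was low and variable. It measured 2.35, 0.622 and 1.24 scaled FPKM in Control, 1.68, 0.489 and 0.416 in Mild IOP and 2.81, 0.714 and 3.50 in Moderate IOP, on 4 to 35 derived fragments per library. Its groups overlapped, with intervals against Control of -1.32 to 0.58 (Mild IOP, adjusted p = 0.844 by limma) and -0.53 to 1.37 (Moderate IOP, adjusted p = 0.687).

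Of the Nmnat genes, Nmnat2 held nearly the same level in the 3 groups. Its locus is at 152955101 to 153119261 on the plus strand of chromosome 1. The libraries measured 15.2, 12.3 and 17.2 scaled FPKM in Control (14.9 ± 2.44), 17.6, 15.2 and 11.6 in Mild IOP (14.8 ± 3.00) and 14.8, 15.1 and 18.2 in Moderate IOP (16.0 ± 1.86; SD, n = 3 each). All groups overlapped. Nmnat2 in Mild IOP was 0.989 times the Control level (95% interval 0.734 to 1.33, adjusted p = 0.991 by limma), and the sign of this difference turned with the scaling of the libraries. In Moderate IOP it was 1.08 times the Control level (0.799 to 1.45, adjusted p = 0.836). With 293 to 592 derived fragments per library it was the most deeply sampled of the 3 Nmnat genes, and neither interval against Control reached a 1.5-fold change in either direction.

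Nmnat1, the nuclear enzyme, was lowest on average in Mild IOP and highest in Moderate IOP, without passing the test. It lies at 149468787 to 149485142 on the minus strand of chromosome 4. The values were 9.07, 9.68 and 8.81 scaled FPKM in Control (9.19 ± 0.446), 5.40, 6.24 and 11.7 in Mild IOP (7.78 ± 3.42) and 12.9, 8.76 and 13.7 in Moderate IOP (11.8 ± 2.66; SD, n = 3 each). Each Nmnat1 value rested on 28 to 63 derived fragments, fewer than any value of Nmnat2. In Mild IOP, 2 libraries lay below all Control libraries and the third above them, and in Moderate IOP 2 of 3 libraries were above every Control library. The difference between Moderate IOP and Mild IOP was 0.59 (95% interval -0.00214 to 1.18, adjusted p = 0.232 by limma), or 1.5-fold. Mild replicate 3 decided this value, because without it the difference was 0.89 and passed the threshold (adjusted p = 0.0604). Against Control, the differences were -0.28 for Mild IOP (adjusted p = 0.800) and 0.31 for Moderate IOP (adjusted p = 0.633) by limma.

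Nmnat3, the mitochondrial enzyme, was at the edge of detection in Control and Moderate IOP and detected in every Mild IOP library. Its locus is at 98296583 to 98411428 on the plus strand of chromosome 9. It measured 0, 0.266 and 1.36 scaled FPKM in Control (0.540 ± 0.718), 2.39, 1.33 and 3.28 in Mild IOP (2.33 ± 0.980) and 1.40, 0.334 and 0 in Moderate IOP (0.579 ± 0.732; SD, n = 3 each). The lowest Mild IOP library was below the highest library of both other groups, so the ranges overlapped by a narrow margin. These values rested on 0, 5 and 14 derived fragments in Control, 34, 19 and 36 in Mild IOP and 14, 6 and 0 in Moderate IOP. The level that 3 fragments would have given was 0.204 scaled FPKM in Control replicate 1 and 0.252 in Moderate replicate 3, the libraries listed at 0. Mild IOP exceeded Control by 1.17 (95% interval 0.23 to 2.11) and exceeded Moderate IOP by about as much, with a Moderate IOP minus Mild IOP difference of -1.13 (-2.07 to -0.19). With a pseudocount of 0.1 in place of 1 these became 2.61 and -2.51, with SE 1.14. Neither passed the threshold (adjusted p = 0.361 and 0.153 by limma, and 0.470 and 0.233 with the smaller pseudocount). Without Moderate replicate 1 the latter difference was -1.49 and passed (adjusted p = 0.0961). These were the widest differences among the 7 genes in their comparisons, and like those of Naprt they rested on few fragments.

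**Figure D2:**
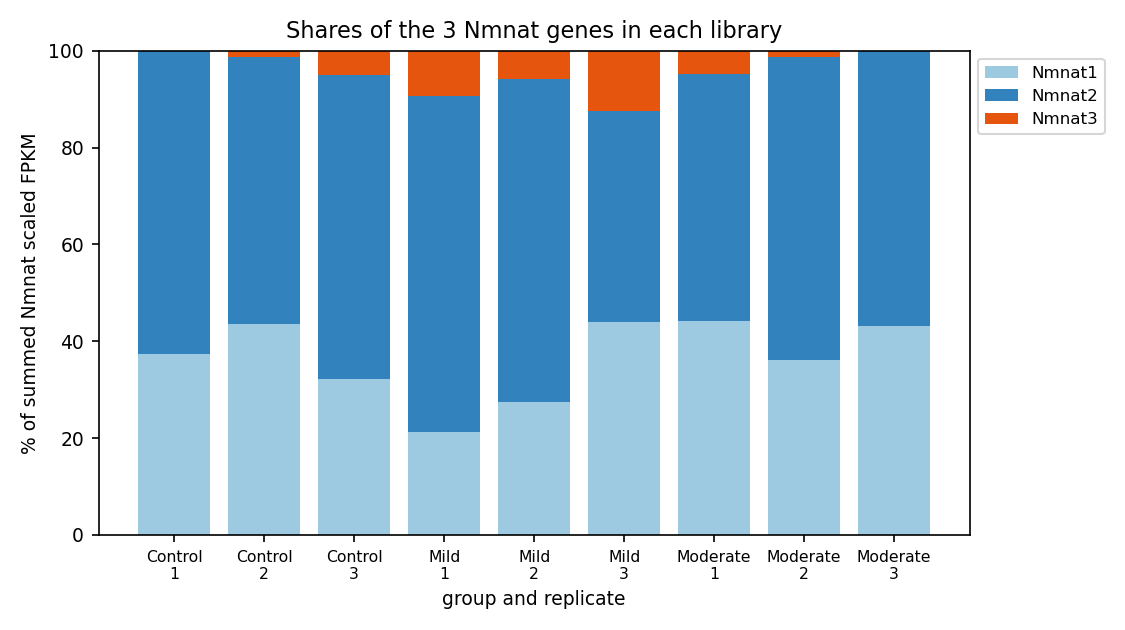
Share of Nmnat1, Nmnat2 and Nmnat3 in their summed scaled FPKM (y axis, percent, from 0) in each of the 9 libraries (x axis, group and replicate). Nmnat2 makes up more than 50% in every library except Mild replicate 3, and the Nmnat3 segment is widest in the 3 Mild IOP libraries.

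The summed level of the 3 Nmnat genes was 24.6 ± 2.55 scaled FPKM in the Control libraries, 24.9 ± 1.95 in the Mild IOP and 28.4 ± 3.88 in the Moderate IOP libraries (SD, n = 3 each). Nmnat2 made up 55.3% to 62.8% of this sum in the Control libraries, 43.6% to 69.3% in Mild IOP and 50.9% to 62.4% in Moderate IOP. In the library with the lowest Nmnat2 share, Mild replicate 3, Nmnat1 made up 44.0%. Nmnat3 made up 0% to 4.96% in Control, 5.83% to 12.4% in Mild IOP and 0% to 4.83% in Moderate IOP. The Nmnat3 shares of the Mild IOP libraries thus stood above those of both other groups, which is a description of 3 libraries per group and was given no test.

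Sarm1, the NAD-cleaving effector of axon degeneration, was not called in any comparison. Its locus is at 78472330 to 78497754 on the minus strand of chromosome 11. The libraries measured 6.88, 10.04 and 7.74 scaled FPKM in Control (8.22 ± 1.64), 11.3, 7.89 and 7.22 in Mild IOP (8.82 ± 2.21) and 7.02, 5.26 and 7.58 in Moderate IOP (6.62 ± 1.21; SD, n = 3 each). The highest value was Mild replicate 1 and the lowest was Moderate replicate 2, and all groups overlapped. Sarm1 in Mild IOP was 1.06 times the Control level (95% interval 0.743 to 1.51, adjusted p = 0.943 by limma). In Moderate IOP it was 0.828 times the Control level (0.581 to 1.18, adjusted p = 0.621) and 0.782 times the Mild IOP level (0.548 to 1.11, adjusted p = 0.413). Sarm1 rested on 161 to 389 derived fragments per library. The ratio of Nmnat2 to Sarm1, the protector set against the effector, was 1.23 to 2.22 in Control, 1.55 to 1.92 in Mild IOP and 2.11 to 2.88 in Moderate IOP. The Moderate IOP range began above the highest Mild IOP ratio and overlapped with Control. These are ratios of RNA and not of protein, and they were given no test. Among all single genes, 27.5% had group ranges that did not overlap in Moderate IOP against Mild IOP.

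**Figure D3:**
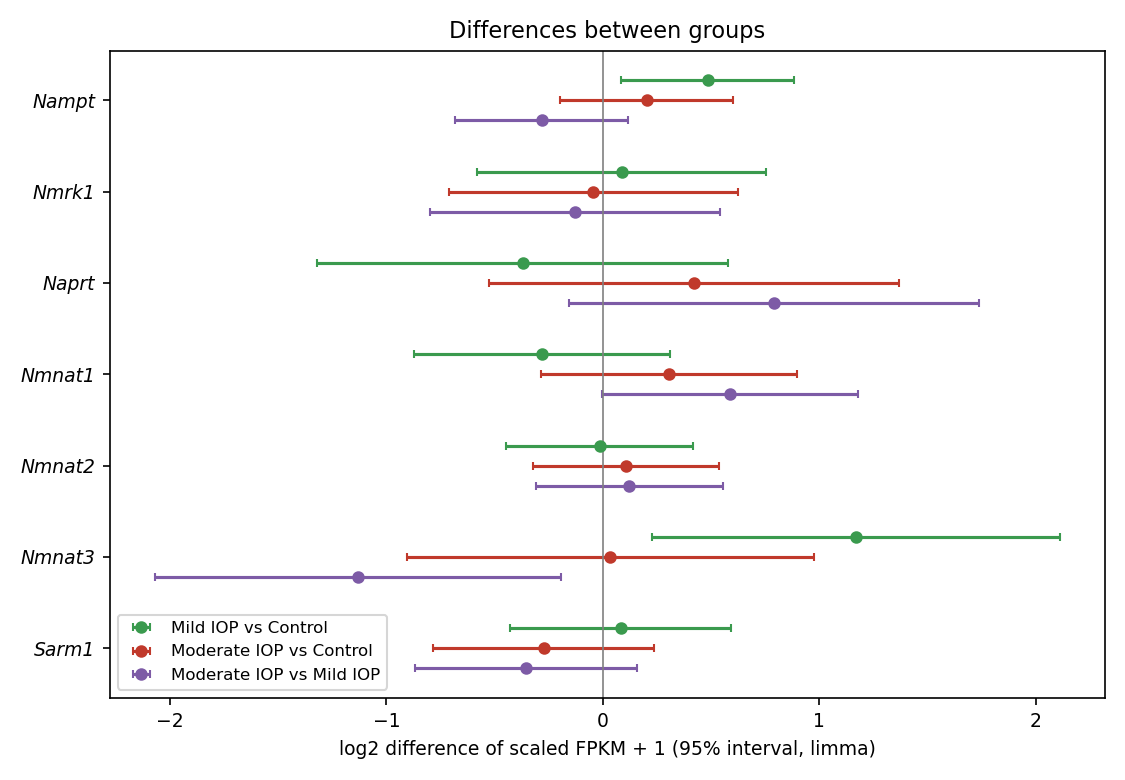
Differences on the log2(scaled FPKM + 1) scale (x axis) with 95% intervals from limma for each of the 7 genes (y axis) and each comparison; points right of 0 are higher in the group named first. The intervals of Nampt and Nmnat3 for Mild IOP against Control and of Nmnat3 for Moderate IOP against Mild IOP do not reach 0, and no adjusted p is below 0.1.

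Set against all genes, the 7 transcripts were not among those that passed the threshold. Mild IOP against Control called 0 of 7, where 0.398% of the 13070 genes tested were called. Moderate IOP against Control also called 0 of 7, against 1.84% of all genes, and Moderate IOP against Mild IOP called 0 of 7, against 10.1%. At an unadjusted limma p below 0.05 the counts were 2 (Nampt and Nmnat3), 0 and 1 (Nmnat3), where 10.1%, 15.3% and 21.8% of all genes reached that level. The comparisons share their libraries, the first pair the Control libraries, so they are not independent of each other. The group ranges did not overlap for 1 of 7 genes in Mild IOP against Control (Nampt, above), 0 of 7 in Moderate IOP against Control and 1 of 7 in Moderate IOP against Mild IOP (Nampt, below). Among all genes this held for 17.1%, 19.4% and 27.5%. The median absolute difference of the 7 genes was 0.28, 0.20 and 0.36 in the order above, beside 0.20, 0.25 and 0.29 over all genes. The signs were mixed, with 4 higher and 3 lower, then 5 and 2, then 3 and 4.

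**Figure D4:**
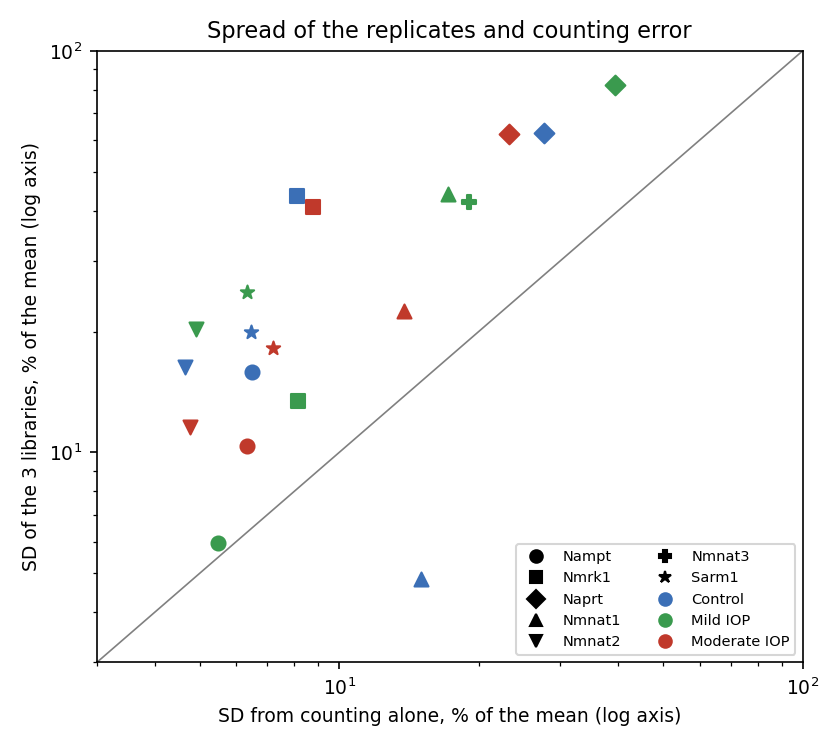
SD between the 3 libraries of a group (y axis) against the SD that counting of the derived fragments alone gives (x axis), both as percent of the mean on log axes; each symbol is 1 gene in 1 group, and the line marks equality. Of 19 points, 18 lie above the line, and Nmnat1 in Control lies below it.

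The spread between technical replicates exceeded counting error for most of these genes. It was above the counting SD in 18 of 19 combinations of gene and group in which no library was at 0, and more than 2 times as large in 14, with a median ratio of 2.45. The highest ratio was that of Nmrk1 in Control, at an SD of 43.5% of the mean against 8.1% from counting. For Nampt in Mild IOP the spread was 5.95% against 5.48%, close to counting alone. For Nmnat2 and Sarm1 in Control it was 16.3% against 4.64% and 19.9% against 6.45%.

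The remaining genes of NAD synthesis were largely at low or moderate levels, and 8 of 15 reached the level for testing. None of the 8 was called in Mild IOP or Moderate IOP against Control, with medians of 0.17 and -0.02 and with 0 and 1 genes at an unadjusted limma p below 0.05. Moderate IOP against Mild IOP called 1 lower, Nadk, and 0 higher, with a list median of 0.10 and 2 genes at an unadjusted limma p below 0.05. These counts stand beside 10.1% called and 21.8% at that p among all genes, so 1 of 8 was near the background. Nadk, the cytosolic kinase that turns NAD into NADP, measured 14.8, 15.3 and 14.3 scaled FPKM in Control, 18.9, 18.4 and 14.5 in Mild IOP and 8.06, 10.6 and 12.4 in Moderate IOP. All Moderate IOP libraries were below all libraries of both other groups. Nadk fell by 0.70 on the log2 scale from Mild IOP to Moderate IOP (SE 0.188, adjusted p = 0.0560 by limma), while its difference from Control in Moderate IOP, -0.50, did not pass (adjusted p = 0.249). The Nadk call was lost without Mild replicate 1 or 2 or Moderate replicate 1 or 2, with adjusted p between 0.110 and 0.197. Slc25a51, the mitochondrial NAD carrier and the second gene of the list by mean level, had means of 9.30, 8.30 and 10.4 and was not called. Nadk2, the mitochondrial NAD kinase, had means of 8.54, 10.9 and 6.47. Its Moderate IOP minus Mild IOP difference of -0.73 was as wide as that of Nadk but did not pass (SE 0.261, adjusted p = 0.132 by limma), with all Moderate IOP libraries below all Mild IOP libraries. The genes of the route from tryptophan differed in level. Afmid, an early enzyme of the kynurenine pathway, was above 0 in 9 of 9 libraries (mean 2.94 scaled FPKM) and Kynu in 8 of 9 (1.22). Haao and Kmo were listed at 0 in all 9 libraries, Qprt, Ido1, Tdo2 and Acmsd were above 0 in 1 library each and Ido2 in 5. The genes of this list, apart from Nadk and Slc25a51, were named after their values were seen.

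Among 17 genes whose products consume or modify NAD or its precursors, 13 were tested and none was called in any comparison, with medians of 0.10, -0.07 and -0.12 in the order above. Among all genes 0.398%, 1.84% and 10.1% were called. At an unadjusted limma p below 0.05 the counts were 0, 2 and 1 of 13, beside 10.1%, 15.3% and 21.8% of all genes. The most abundant were the mitochondrial deacetylase Sirt3, at group means of 70.0 (Control), 58.3 (Mild IOP) and 55.5 (Moderate IOP) scaled FPKM, and the mainly cytosolic deacetylase Sirt2, at 35.2, 35.5 and 39.8. The lowest adjusted p of the list was that of Tnks2, a PARP family member named after its values were seen, at 7.75 in Moderate IOP against 12.1 in Mild IOP (difference -0.59, adjusted p = 0.114 by limma). Cd38, a major NAD glycohydrolase of immune cells, was above 0 in 2 of 9 libraries and its relative Bst1 in 1, both named after their values were seen, whereas Sarm1 was above 0 in all 9.

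All 15 genes fixed for Nmnat2 turnover and axon degeneration were tested. Mild IOP against Control called none of them (median 0.11), Moderate IOP against Control called 1 higher and 0 lower (median 0.10), and Moderate IOP against Mild IOP called 2 higher and 0 lower (median -0.15). Over all genes the called shares were 0.398%, 1.84% and 10.1%, so 2 of 15 in the last comparison was near the background. At an unadjusted limma p below 0.05 the counts were 0, 3 and 2 of 15, beside 10.1%, 15.3% and 21.8% of all genes. Stmn2 (SCG10), a microtubule regulator that, like Nmnat2, is a short-lived axonal protein, measured 128, 162 and 152 scaled FPKM in Control, 131, 115 and 149 in Mild IOP and 254, 216 and 217 in Moderate IOP. Each Moderate IOP library was above every library of both other groups. Stmn2 rose by 0.80 from Mild IOP to Moderate IOP (SE 0.137, adjusted p = 0.0105 by limma) and by 0.64 from Control to Moderate IOP (95% interval 0.33 to 0.94, adjusted p = 0.0645), or 1.56-fold. The second of these calls was lost when any of 6 libraries was left out (Control replicate 1 or 2, Mild replicate 1, or Moderate replicate 1, 2 or 3), with the difference between 0.54 and 0.71 over all 9 omissions. Summed RGC markers were also higher in each Moderate IOP library than in any other library, and summed amacrine markers were lower in each. The RGC sum was carried mainly by Sncg and Nefl and the amacrine sum by Gad1. Against Control, 6 of 8 RGC markers had all Moderate IOP libraries above all Control libraries, while Pou4f2 (9.08 in Moderate IOP, 9.69 in Control) and Slc17a6 (44.3 and 36.8) overlapped. Of 5 amacrine markers 3 lay below, Tfap2b (61.5 and 58.4) overlapped and Tfap2a (8.65 and 5.78) lay above. The part of these cell types in the Stmn2, Skp1a and Nadk differences was not tested.

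Skp1a, the adaptor of the Fbxo45 and Mycbp2 (PHR1) ubiquitin ligase that degrades Nmnat2, measured 353, 347 and 478 scaled FPKM in Control, 309, 300.5 and 387 in Mild IOP and 538, 582 and 504 in Moderate IOP. The Moderate IOP libraries were above all others. Skp1a rose by 0.71 from Mild IOP to Moderate IOP (SE 0.149, adjusted p = 0.0218 by limma), and its difference of 0.48 from Control did not pass (adjusted p = 0.173). The other parts of that ligase, named after their values were seen, were not called. Fbxo45, the substrate receptor, had means of 63.3, 54.3 and 41.6 in the same order of groups, with a Moderate IOP minus Control difference of -0.65 (adjusted p = 0.195). Mycbp2 had means of 5.27, 5.73 and 7.05, with a difference of 0.37 (adjusted p = 0.392). The kinases that speed axonal loss of Nmnat2 also lacked a call. Map3k12 (DLK), the upstream stress kinase, had means of 12.1, 14.6 and 12.1. Mapk10 (JNK3), the neuronal kinase downstream of it, had 45.1, 45.9 and 41.3. This pair was also named after its values were seen.

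**Figure D5:**
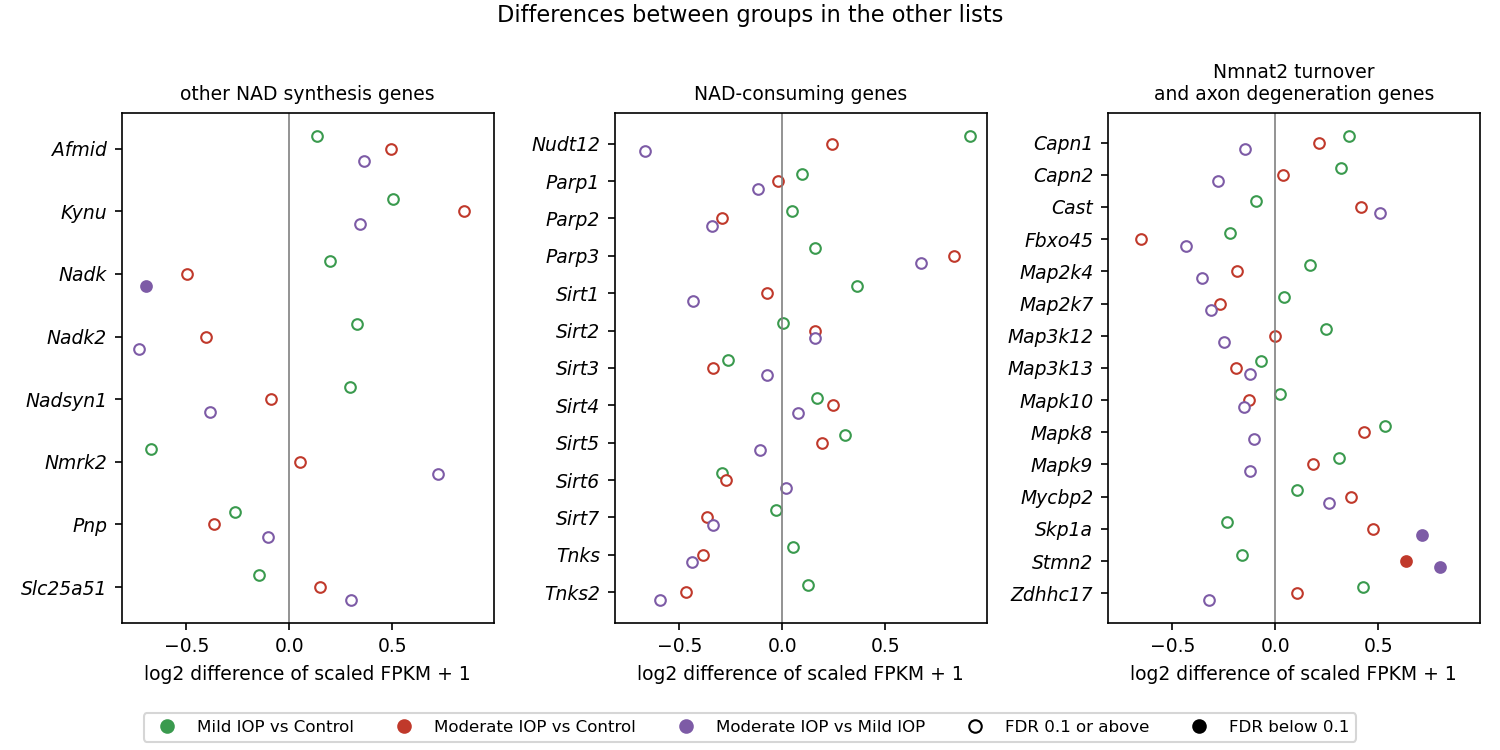
Differences on the log2(scaled FPKM + 1) scale (x axis) for the tested genes of the 3 other lists (y axis, 1 panel per list), in colours for the 3 comparisons; filled symbols have an FDR below 0.1 and open symbols do not. Filled symbols appear for Nadk to the left and for Skp1a and Stmn2 to the right of 0 in Moderate IOP against Mild IOP, and for Stmn2 in Moderate IOP against Control.

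The genes whose levels followed 3 of the 7 transcripts most closely over the 9 libraries were sought among 8227 genes with a mean of at least 5 scaled FPKM. These correlations describe 9 libraries from 3 pools and carry no test. For Nampt the highest Pearson r was that of Rhot1 (0.963), which encodes the mitochondrial transport protein Miro1, followed by Pkia (0.939) and Polr3f (0.928). Rhot1 had group means of 22.5, 32.3 and 25.3 scaled FPKM, highest in Mild IOP like those of Nampt. As Rhot1 was chosen by its correlation with Nampt, this likeness is no separate evidence. For Sarm1 they were Sdf4 (0.934), Lrp10 (0.930) and Gle1 (0.905), and for Nmnat2 they were Zfp330 (0.937), 3110082I17Rik (0.886) and Ggcx (0.876). Within the 7 genes, the highest r was that of Nampt and Nmnat3 (0.913), followed by Naprt and Nmnat2 (0.627) and Nmrk1 and Nmnat2 (0.484). The lowest was that of Nmnat1 and Sarm1 (-0.428), and that of Nmnat2 and Sarm1 was 0.0771. Nampt and Nmnat3 both had their highest group mean in Mild IOP, and Nmnat3 was above 0 in 7 of 9 libraries.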

How the data were processed

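RNA was pooled per group and split by the authors before SMART-seq v4 amplification and HiSeq2500 sequencing. The deposited values are FPKM per locus, made by the authors per library with Cufflinks on mm10; the submitters' processing notes name TopHat2 and the study's methods bowtie2. FPKM were summed per symbol (23997 symbols in 24487 rows per file; 2 with failed estimates were left out) and scaled by median-of-ratios factors (0.966 to 1.04). The highest symbol held 20.5% of the summed FPKM in Mild replicate 2 and 9.14% in Moderate replicate 3. In every other library the highest symbol held 1.87% to 3.59%. Naprt was matched through RefSeq synonyms. Fragments behind a value were derived from its confidence interval and are too low for abundant genes. Intervals and floors from them cover counting error only.

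Genes with a mean of at least 0.5 were fitted as log2(scaled FPKM + 1) by limma 3.58.1 (R 4.3.3) over all 9 libraries with a variance trend, and called at a Benjamini-Hochberg FDR below 0.1. The procedure was run on simulated data whose noise was the spread between libraries of a pool. That run therefore does not cover error rates for differences between animals. All 7 genes were named, with, from the other lists, those called and the 2 most abundant, the 3 genes most alike to Nampt, Nmnat2 and Sarm1, genes overlapping a locus, and markers. The 7 genes and the lists were chosen with earlier results of these data known.

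Libraries with the same replicate number did not deviate together (correlations -0.0047 to 0.0449), so numbers were not used as pairs. Scaling, pseudocount, filter, trend, libraries fitted, replicate block, failed estimates, loci summed and leaving out each library were varied. No batch is named in the sources used here.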

Additional observations from a re-analysis of the deposited data

Results flagged for a closer look

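For 3 genes of the lists around NAD metabolism and axon degeneration, the direct limma comparison of Moderate IOP with Mild IOP passed an FDR below 0.1. With 1 pool per group, it compares libraries of these pools and does not cover the spread between animals. The log2 differences were -0.695 for Nadk, 0.712 for Skp1a and 0.799 for Stmn2, and 1324 of 13070 genes tested passed the same threshold. None of the 7 main genes did. No cause was tested.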

How the results depend on the processing

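Of 393 differences of the 7 genes under alternatives, 372 kept direction and side of the threshold, 19 changed sign, 2 newly passed and 0 were lost. Many alternatives left the difference itself unchanged and could alter only its SE and adjusted p. Among these were the filter, the trend, the block and omission of a library from the group not compared. The count of kept directions therefore includes many that could not change. Nmnat2 in Mild IOP against Control became 0.0313 without scaling and 0.000692 with upper-quartile scaling. With 1 library left out the ranges that crossed 0 were -0.14 to 0.14 for Nmnat2, -0.0822 to 0.40 for Nmrk1 and -0.0939 to 0.22 for Sarm1 in Mild IOP against Control. In Moderate IOP against Control they were -0.0141 to 0.21 for Nmnat2, -0.32 to 0.39 for Nmnat3 and -0.34 to 0.27 for Nmrk1, and in Moderate IOP against Mild IOP -0.0315 to 0.25 for Nmnat2 and -0.42 to 0.0769 for Nmrk1. The adjusted p of Nampt in Mild IOP against Control ranged from 0.272 to 0.675 and that of Nmnat3 from 0.260 to 0.627. The number of the 7 genes called in Moderate IOP against Mild IOP was 0 to 1 with a library left out.

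Among all genes, Mild IOP against Control called 52, and 24 without the filter, 85 with a minimum mean of 5, 15 without the variance trend, 23 with 6 libraries fitted and 15 to 175 with a library left out (highest without Mild replicate 3, lowest without Mild replicate 2). Moderate IOP against Control called 241, and 145 without the trend, 143 with 6 libraries and 61 to 277 with a library left out (lowest without Control replicate 1). Moderate IOP against Mild IOP called 1324, and 836 without the trend and 520 to 1398 with a library left out (lowest without Mild replicate 2). With the replicate block, which the numbers do not justify as a pairing, the counts were 25 and 134 for Mild IOP and Moderate IOP against Control. The Stmn2 call in Moderate IOP against Control was lost without the filter (adjusted p = 0.1), without the trend (0.164) and with the block (0.128) by limma. Naprt and Nmnat3 gave no value with the minimum mean of 5. The causes were not tested. Depth limits Naprt and Nmnat3 most, and 1 pool per group leaves animal variation unmeasured.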
